A study of Homo sapiens with 6 samples.

Results

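The mRNAs of 9 human selenoprotein genes (GPX1, GPX4, TXNRD1, SELENOF, SELENOH, SELENOK, SELENOT, SELENOW and SEPHS2) were followed through 6 reverse transcription (RT) stop libraries from U2OS cells, a human osteosarcoma line. The genes were chosen by name, and each was represented by the 1 RefSeq transcript that the files list for it, out of 15739 transcripts in all. Of these transcripts, 10367 were matched to an annotated sequence, among them all 9 selenoprotein mRNAs. The stretches profiled in each mRNA were the selenocysteine insertion element of the 3′ UTR and the surroundings of the recoded UGA codon.

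Selenoproteins carry selenocysteine, an amino acid with selenium in place of the sulphur of cysteine, and it is encoded by UGA, which elsewhere ends translation. A hairpin in the 3′ UTR, the selenocysteine insertion sequence (SECIS) element, tells the ribosome to read that codon as selenocysteine. The hairpin has a quartet of non-Watson-Crick pairs at the base of its main helix, to which the UGA sequence of the 5′ strand and the GA of the 3′ strand belong, and unpaired adenosines in its apical part. The SECIS-binding protein SECISBP2 holds the quartet and works with the elongation factor EEFSEC, which carries the selenocysteine tRNA. Many selenoproteins are redox enzymes. GPX1 reduces hydrogen peroxide and GPX4 reduces peroxidised phospholipids, TXNRD1 keeps thioredoxin reduced, and SEPHS2 makes the selenium donor for selenocysteine itself.

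Dimethyl sulfate (DMS) methylates the Watson-Crick face of unpaired A and C, and RT stops there, so that A and C in a helix give fewer stops than A and C in a loop. Poly(A)-selected RNA without DMS was reverse transcribed in 150 mM K+ or in 150 mM Na+ by the sample labels (2 libraries). Poly(A)-selected RNA refolded and treated with DMS in 150 mM K+ or in 150 mM Li+ gave 2 further libraries, here called refolded. The 2 in vivo libraries came from cells treated with 8% DMS for 5 min, either unstressed or after 2 h of starvation in HBSS, a salt solution with calcium and magnesium. The RNA of all 4 libraries with DMS was reverse transcribed in 150 mM K+. There was 1 library per condition, so no difference between conditions has a replicate check, and all intervals are 95% intervals of counting error. For the libraries without DMS the names of the deposited files give the opposite cation from the labels. They are called the library labelled K+ and the library labelled Na+.

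The deposited counts, which list a nucleotide only from 3 stops up, summed to between 12999691 (unstressed cells) and 35371061 (library labelled K+) per library. A nucleotide missing from a file counted as 0. A transcript passed the minimum in a library at a mean of 1 stop per nucleotide, which 1684 to 3744 transcripts reached. All 9 selenoprotein mRNAs passed in the libraries without DMS, and all but SEPHS2 in the 4 others, where its mean was 0.51 to 0.97 stops per nucleotide. Its values there rest on few stops. Of 6 mesenchymal genes fixed as markers of U2OS cells, 5 were matched, with VIM at 2578 stops per 1000000 stops (SPM) in unstressed cells, whereas of 7 genes of blood, epithelial, liver and glial cells only EPCAM had a matched transcript, at 5.65 SPM. The following 2 facts of the entire data set touch all that follows. The share of stops at A or C, the signal of DMS, had a median of 83.4% over 1348 transcripts in unstressed cells and 73.6% in starved cells. In cells, stops were also sparser in coding sequences than in 3′ UTRs, as described beside the codon windows.

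The element of each mRNA was located by its letters and its fold. The sequence from the 5′ quartet to 2 nt past the apical adenosines is shown for all 9, since this stretch holds the nucleotides that the results compare. Capitals mark the quartet letters ATGA (the U of the RNA is written as T) and the apical AA, and the sequences are those of the mRNA strand from the GRCh37 annotation.
GPX1 (chr3:49394736-49394756, minus strand): ATGAgggtgtttcctctAAac
GPX4 (chr19:1106636-1106656, plus strand): ATGAcggcctgcctgcaAAcc
TXNRD1 (chr12:104742444-104742464, plus strand): ATGAagtcaccagtctcAAgc
SELENOF (chr1:87328533-87328552, minus strand): ATGAagactacacagaAAac
SELENOH (chr11:57510365-57510385, plus strand): ATGAtggaacatggccaAAct
SELENOK (chr3:53919425-53919448, minus strand): ATGAatgaggtcatgctgggAAtt
SELENOT (chr3:150345485-150345504, plus strand): ATGAaggcctgtactgAAga
SELENOW (chr19:48287586-48287605, plus strand): ATGAtaggaaggactgAAaa
SEPHS2 (chr16:30455105-30455125, minus strand): ATGAcgtctctccctctAAac
Each element lay within the last exon, in the 3′ UTR, from 58 nt (SELENOW) to 605 nt (SELENOF) after the stop codon. The elements were 41 to 61 nt long, with 9 to 12 base pairs between their arms. Folded with 15 nt added on each side, and with the quartets and the AA held unpaired, they had energies of -26.3 (SELENOK) to -14.7 kcal/mol (TXNRD1). In GPX4 no candidate reached 6 pairs in the fold with flanking sequence, so its element was taken from its letters and folded alone, a rule chosen after seeing the data. Between the ATGA and the AA lay 12 or 13 nt in 8 elements and 16 nt in SELENOK. The sequence of SELENOK holds another ATGA directly after the marked one, 12 nt before the AA and next to the predicted helix, and which of the 2 belongs to its quartet was not tested. SELENOT had another candidate of nearly the same energy, -16.7 against -18.4 kcal/mol.

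Within the element, the apical A and C predicted unpaired carried more stops than the A and C of the helix arms in the libraries with DMS, in the refolded RNA as in cells. Among the 8 mRNAs past the minimum, the apical stops per expected stop were at least 2-fold those of the helix in 7 in refolded RNA in K+, in 7 in Li+, in 6 in unstressed cells and in 3 in starved cells. Without DMS this held for 2 of 9 with the K+ label (SELENOK, and SEPHS2 with 8 apical and no listed helix stops, its helix counted at 3) and for 0 of 9 with the Na+ label. The expected number is the mean of the same base over the transcript, which makes A and C comparable. Apical here means the part beyond the helix arms without its A and C predicted paired (2 to 6 in each of TXNRD1, SELENOF, SELENOH, SELENOK, SELENOT and SELENOW). With the paired ones included, the numbers past 2-fold with DMS were 7, 5, 6 and 2 in the same order, and the median in unstressed cells was 3.26. A nucleotide that is not listed could hold up to 2 stops, which the printed intervals do not cover. With every unlisted A and C counted as 2 the numbers were 7 in refolded RNA in K+, 6 in Li+, 5 in unstressed cells, 2 in starved cells and 0 with the K+ label. As background, 3′ UTRs of all transcripts were cut into tiles of 60 nt and folded, and unpaired over paired A and C reached 2-fold in 23.3% of the tiles in refolded RNA in K+, 23.6% in Li+, 19.5% in unstressed cells and 11.5% in starved cells, and in 12.1% and 12.4% without DMS (labelled K+ and Na+). Of the tiles with a folding energy of -14.7 kcal/mol or less, here called stable, 34.7%, 34.1%, 31.4% and 21.4% reached it with DMS, and 14.5% and 15.2% without. This cut is the energy of the weakest element, TXNRD1, folded with its flanks, so that tiles and elements are not matched in stability. The elements were chosen for a hairpin form and the tiles were not, so that the tiles are a loose background.

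GPX1, a cytosolic and mitochondrial peroxidase, shows the contrast in counts. Its 8 apical A and C, none predicted paired, summed to 127 and 120 stops without DMS (labelled K+ and Na+), 197 and 262 in refolded RNA (K+ and Li+), 241 in unstressed cells and 185 in starved cells. The 10 A and C of its helix arms summed to 175, 188, 64, 84, 38 and 99 stops in the same order. Per expected stop, the helix went from 1.57 and 1.67 without DMS to 0.26 in unstressed cells, and the apical part from 1.30 and 1.24 to 1.71. Apical over helix, each per expected stop, was 0.83 (0.66 to 1.05) and 0.74 (0.58 to 0.93) without DMS, 3.17 (2.38 to 4.28) and 3.27 (2.55 to 4.24) in refolded RNA, 6.62 (4.69 to 9.59) in unstressed cells and 1.89 (1.47 to 2.44) in starved cells. With its 4 unlisted helix nucleotides counted as 2 the ratio in unstressed cells was 5.47.

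SELENOW, a small protein of thioredoxin fold, was like GPX1 in having no excess without DMS and the highest one in unstressed cells. Its 7 unpaired apical A and C held 99, 87, 227, 349, 407 and 205 stops from the library labelled K+ to starved cells, and the 7 A and C of its helix held 85, 79, 42, 75, 17 and 79. The ratio was 0.99 and 0.95 without DMS, 4.16 and 3.55 in refolded RNA, 18.9 (11.7 to 32.8) in unstressed cells and 1.96 (1.51 to 2.58) in starved cells. With 4 unlisted helix nucleotides counted as 2 the ratio in unstressed cells was 12.9. Its 3 paired apical A and C, left out here, held 30 stops in that library, and with them the ratio was 15.5. The strongest apical A in unstressed cells, 2 nt after the start of the AA, had 80 stops there, 48 and 61 in refolded RNA, 39 in starved cells and 30 and 22 without DMS.

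SELENOT, an oxidoreductase of the endoplasmic reticulum, had 41, 35, 68, 80, 76 and 65 stops at 5 unpaired apical A and C, and 36, 57, 20, 45, 4 and 26 at 9 in the helix. Its ratio in unstressed cells was 27.4 on 4 listed helix stops, with a counting interval of 10.3 to 103. Of the 9 helix nucleotides 8 were not listed in this library, and counting each as 2 gave 5.49 (3.32 to 9.48). Its 4 paired apical A and C held 9 stops there, and with them, and unlisted nucleotides again at 0, the ratio was 18.4 (6.93 to 69.1). SELENOF, a partner of the glycoprotein folding sensor of the endoplasmic reticulum, had ratios of 0.90 and 1.05 without DMS, 3.99 and 3.95 refolded, 3.37 (2.47 to 4.64) in unstressed cells and 1.67 (1.32 to 2.11) in starved cells. SELENOK, which takes part in the clearance of misfolded proteins from that compartment, already had 14 apical against 3 helix stops in the library labelled K+, a ratio of 7.45 (2.08 to 40.4), and no listed helix stop against 45 apical stops in refolded RNA in Li+. With unlisted nucleotides counted as 2 these ratios were 1.70 (0.79 to 3.70) and 4.35 (2.35 to 8.58). These small counts set no order among its libraries.

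SELENOH, a nucleolar protein of thioredoxin fold, had a modest contrast at a high level of stops. Its apical over helix ratio was 1.34 and 1.58 without DMS, 2.23 and 2.90 refolded, 1.98 (1.66 to 2.37) in unstressed cells and 1.65 (1.37 to 2.00) in starved cells. The AA itself stood out by its level, with 43 and 64 stops at its 2 adenosines in refolded RNA in K+ and 81 and 100 in unstressed cells, against 22 and 24 in the library labelled K+. TXNRD1, the cytosolic thioredoxin reductase, reached 13.8 (5.54 to 44.1) in refolded RNA in K+ and 2.19 (1.37 to 3.57) in Li+, a gap that rests on 5 against 30 helix stops. It was the 1 mRNA of 8 whose intervals in K+ and Li+ lay apart (higher in K+ with intervals apart in 1.89% of all tiles and 2.26% of stable ones), and with unlisted nucleotides counted as 2 they overlapped, at 3.76 (2.20 to 6.71) and 1.73 (1.12 to 2.71).

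GPX4, the phospholipid hydroperoxide peroxidase, did not show the contrast. Its 4 apical A and C held 35, 28, 35, 30, 56 and 35 stops, and its 8 helix A and C held 43, 50, 51, 44, 52 and 42. The ratio lay between 0.91 (refolded, K+) and 1.52 (1.02 to 2.26, unstressed cells), and the intervals of the 6 libraries overlapped. In unstressed cells 26 of the 52 helix stops lay at the nucleotide just before the AA, and 15 lay 6 nt after its first A.

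**Figure D1:**
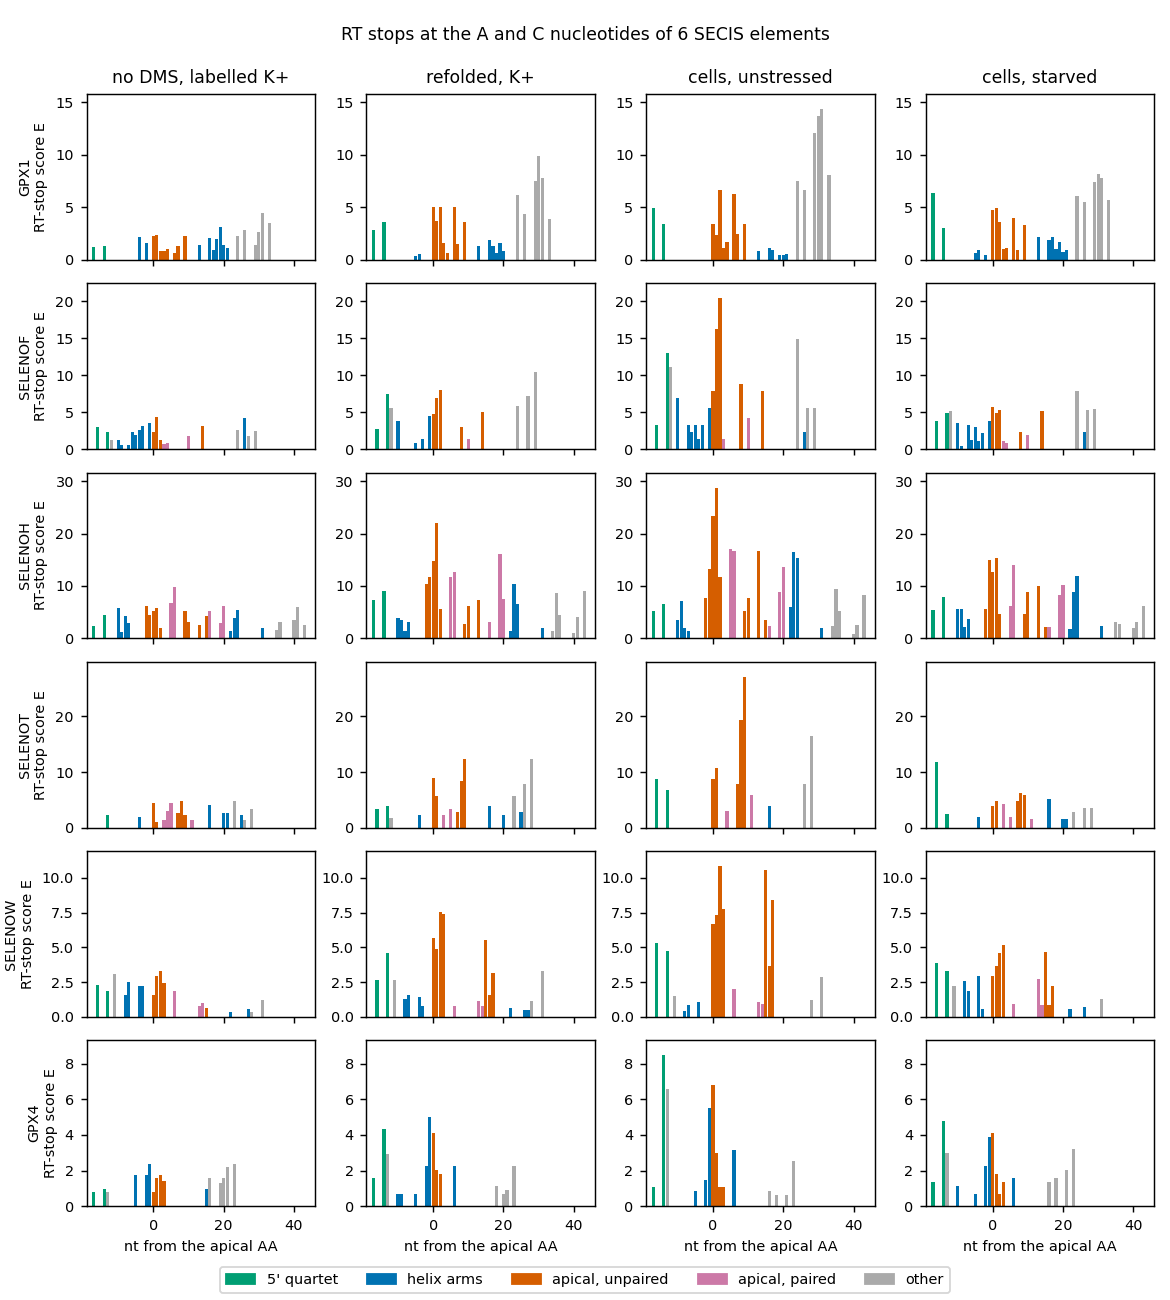
RT-stop score E (stops at a nucleotide over the mean of the transcript) at each A and C of 6 SECIS elements, against the distance in nt from the first apical A, in the library labelled K+ without DMS, refolded RNA in K+, unstressed cells and starved cells (1 library each, no error bar). Colours give the predicted class of the nucleotide. With DMS most apical bars stand above the helix bars in GPX1, SELENOF, SELENOT and SELENOW, whereas in GPX4 the helix nucleotide before the AA is about as high as the AA.

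The 5′ quartet letters ATGA hold 2 adenosines. The stops per expected stop at these adenosines had a median of 0.97 and 0.94 without DMS, 1.48 and 1.54 in refolded RNA, 2.21 in unstressed cells and 1.77 in starved cells, over the mRNAs past the minimum. In unstressed cells it ranged from 0.40 in TXNRD1, on 3 stops and below both libraries without DMS (0.47 and 0.51), to 4.41 in SELENOK (25 stops), and in SELENOH it was 2.39 against 2.37 and 2.18. The other ATGA of SELENOK had 12 stops in unstressed cells, an index of 2.11, and with it the highest value was 3.59 (SELENOF) and the median 2.07. In GPX4 the second adenosine alone had 40 stops in unstressed cells, against 6 and 7 without DMS. In SELENOF the same adenosine had 28 stops in unstressed cells, against 13 and 15 without DMS.

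Starved cells had a smaller contrast than unstressed cells in 8 of the 8 mRNAs past the minimum, and SEPHS2, with 12 apical and 4 helix stops unstressed and 4 and 3 starved, had a lower ratio as well. The intervals of the 2 in vivo libraries lay apart for 4 of the 8 (GPX1, SELENOF, SELENOT and SELENOW). With the lower value starved, they also did in 7.56% of the folded tiles of all 3′ UTRs and 8.7% of the stable ones. The median ratio was 4.79 in unstressed and 1.93 in starved cells. With unlisted nucleotides counted as 2 the ratio was still lower in starved cells in 8 of 8, with medians of 2.94 and 1.78, and the intervals of GPX1, SELENOF and SELENOW lay apart. Among tiles counted in this way the ratio was lower in 58.9% of all and 72.4% of stable ones, and intervals lay apart in 3.99% and 6.8%. With the paired apical nucleotides included it was also lower in 8 of 8. The apical stops per expected stop were lower in starved cells in 8 of 8, and those of the helix were higher in 4 of 8. Unpaired A and C were lower in 54.3% of all tiles and 83.4% of the stable ones, and paired A and C were higher in 51.7% and 29.7%. In the folded tiles of all 3′ UTRs the ratio was lower in starved cells in 57.4% of 12521, with medians of 1.17 unstressed and 1.09 starved. Of the 1839 stable tiles it was lower in 61.8%, with medians of 1.49 and 1.26. The lower share of stops at A or C in starved cells moved with this difference, and its part was not tested. Between unstressed cells and refolded RNA in K+ the ratio was lower in cells in 4 of 8 (54.4% of the tiles, and 47.0% of the 3539 stable ones, whose medians were 1.52 in cells and 1.46 refolded), and intervals lay apart for GPX1, SELENOT and SELENOW, each higher in cells (3.68% of all tiles and 5% of stable ones). With unlisted nucleotides counted as 2 the ratio was lower in cells in 2 of 8 (54.2% and 40.8%), and the intervals of SELENOW alone lay apart, higher in cells (1.49% and 2.26%).

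**Figure D2:**
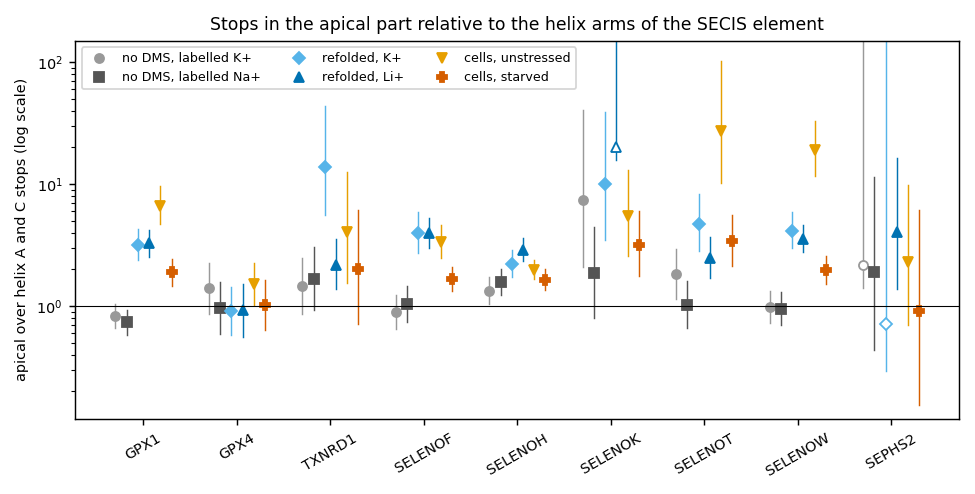
Stops per expected stop at the apical A and C of the SECIS element over those at the helix A and C (log axis), for the 9 mRNAs in the 6 libraries. Bars are 95% counting intervals, cut at the top of the axis, and open symbols have no listed helix stop, with the helix counted at 3 stops, which is no bound. Unlisted nucleotides count as 0 elsewhere. GPX1 and SELENOW are at or below 1 without DMS and highest in unstressed cells.

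Over its full length the element was not poor in A and C stops. The A and C stop index, observed over expected stops from the 5′ quartet to the 3′ quartet, had a median of 1.65 in refolded RNA in K+, 1.81 in Li+, 2.02 in unstressed cells and 1.51 in starved cells (8 mRNAs each), and 1.36 and 1.14 without DMS (9 mRNAs). Relative to all nucleotides of the transcript the medians were 2.91, 3.72 and 2.45 in refolded RNA in K+, unstressed and starved cells. A second candidate within the profiled transcript was found in 4 mRNAs past the minimum (TXNRD1, SELENOF, SELENOH and SELENOT). That of SELENOK, at -13.6 kcal/mol, ended past it and was left out. In these 4 the order of the in vivo libraries rested on the chosen element, whose median was 3.07 unstressed and 1.84 starved. The second candidates had 1.15 and 2.05. The median of all 3′ UTR tiles was 0.91, 0.89, 1.17 and 0.98 with DMS and 0.75 and 0.73 without. An index of 0.5 or less was reached by 0 of 8 members in unstressed cells, against 28.4% of 19177 tiles, and by 1 of 8 in starved cells, against 34.3% of 29672 tiles. In refolded RNA and without DMS the count was 0 in each library, against 30.3% (K+), 31.1% (Li+), 37.7% (labelled K+) and 38.4% (labelled Na+) of the tiles. An index of 2 or more was found in 5 of 8 in unstressed cells (26.6% of tiles), 2 of 8 in starved cells (21.7%), 2 and 3 of 8 in refolded RNA (7.28% and 7.41%) and 1 and 2 of 9 without DMS (6.63% and 6.15%). The member at 0.5 or less in starved cells was TXNRD1, with 30 stops where 75.5 were expected, an index of 0.40 (0.27 to 0.57), against 0.72 (0.52 to 0.98) in unstressed cells. None of the 8 differed 2-fold between starved and unstressed cells (9.48% of tiles above, 9.34% below) or between unstressed cells and refolded RNA in K+ (17.6% above, 11.3% below).

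In SELENOH the entire element was rich in stops in all libraries, also without DMS. Its index was 3.54 and 3.68 without DMS, 4.22 and 4.16 refolded, 4.99 (4.68 to 5.32) in unstressed cells and 4.00 (3.73 to 4.29) in starved cells. The index of the same stretch at G and U, the bases outside the A and C readout, was 3.91 and 3.10 without DMS and 3.65 in unstressed cells. Both kinds of base were thus raised together in this stretch. For SELENOF the A and C index was 1.79 and 1.81 without DMS and 3.37 (3.01 to 3.76) in unstressed cells, and its G and U index moved from 2.39 and 2.72 to 3.89. SELENOK went from 0.86 and 1.03 without DMS to 2.01 (1.63 to 2.45) in unstressed cells (1.69 when its element began at the other ATGA, which is below 2) while its G and U index stood at 0.78, 1.09 and 1.08. The index of SEPHS2 ranged from 0.33 (13 stops, refolded in K+) to 1.71 (49 stops, unstressed cells).

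The other sequence that selenocysteine needs is the recoded codon. It is shown with 12 nt on each side for the 5 mRNAs in which this stretch lies in 1 exon, with the codon in capitals.
GPX1 (chr3:49395553-49395579, minus strand, exon 1 of 2): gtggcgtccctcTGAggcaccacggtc
GPX4 (chr19:1105390-1105416, plus strand, exon 3 of 7): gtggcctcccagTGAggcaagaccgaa
TXNRD1 (chr12:104742179-104742205, plus strand, exon 17 of 17): caggctggctgcTGAggttaagcccca
SELENOF (chr1:87346361-87346387, minus strand, exon 3 of 5): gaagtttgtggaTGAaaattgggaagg
SEPHS2 (chr16:30456857-30456883, minus strand, the single exon): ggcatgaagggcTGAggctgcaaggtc
In SELENOH, SELENOK, SELENOT and SELENOW the stretch crosses an exon junction. The codon encodes residue 49 of 203 in GPX1, 110 of 234 in GPX4, 49 of 195 in SELENOT, 13 of 87 in SELENOW, 44 of 122 in SELENOH, 96 of 165 in SELENOF and 60 of 448 in SEPHS2. TXNRD1 (648 of 649) and SELENOK (92 of 94) have it at their very end, 6 and 9 nt before the final stop codon, so that the windows around both codons overlap.

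In a window of 33 nt around the recoded codon the A and C stop index lay above that of the entire transcript in some mRNAs and below it in others. In unstressed cells the interval lay above 1 for 3 of 8 (GPX4, SELENOF and SELENOH), below 1 for 3 (GPX1, TXNRD1 and SELENOW) and held 1 for SELENOK and SELENOT. Of the coding tiles of all transcripts 15.8% lay above and 66.5% below. In starved cells 1 of 8 lay above (17% of tiles), 3 below (63.6%) and 4 held 1. The median over the mRNAs past the minimum was 1.07 and 1.02 in refolded RNA (K+ and Li+), 1.15 in unstressed cells, 0.89 in starved cells and 0.70 and 0.56 without DMS. The median of all coding tiles of 33 nt was 0.80, 0.80, 0.44 and 0.51 with DMS and 0.67 and 0.66 without. An index of 0.5 or less was found in 0 of 8 members in unstressed cells (53.7% of 49492 coding tiles) and in 1 of 8 in starved cells (49.4% of 65503), and an index of 2 or more in 1 of 8 (5.41% of tiles) and 0 of 8 (5.12%). In refolded RNA 0 of 8 were at 0.5 or less in K+ (27.9%) and in Li+ (27.5%), and 1 of 8 (3.94%) and 2 of 8 (4.19%) were at 2 or more. Without DMS 1 of 9 (38.1%) and 4 of 9 (38.5%) were at 0.5 or less, and 1 of 9 (3.46%) and 0 of 9 (3.44%) at 2 or more, in the order labelled K+, labelled Na+. Of these counts, 2 turned on a value at the cut. TXNRD1 had 0.501 in unstressed cells, and GPX4 had 1.998 with the Na+ label. Between starved and unstressed cells 0 of 8 were 2-fold above (14.7% of tiles) and 1 of 8, TXNRD1, 2-fold below (15.4%). Between unstressed cells and refolded RNA in K+ 0 of 8 were 2-fold above (2.4%) and 1 of 8, SELENOW, 2-fold below (45.9%).

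GPX4 had the most stops around this codon. Its 33 nt held 276 and 244 stops at A and C without DMS, 302 and 406 refolded, 331 in unstressed cells and 226 in starved cells. The index was 2.16 and 2.00 without DMS, 2.23 and 2.16 refolded, 2.14 (1.92 to 2.39) in unstressed cells and 1.73 (1.51 to 1.97) in starved cells, so that the level was alike with and without DMS. Its G and U index was 1.82 and 1.94 without DMS and 1.74 in unstressed cells. The window of SELENOF followed, with 1.53 and 1.60 without DMS, 1.61 and 2.07 refolded, 1.72 (1.38 to 2.13) in unstressed cells and 1.07 (0.91 to 1.25) in starved cells.

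In SELENOW the unstressed library stood lowest. The window had 159 and 168 stops without DMS, 153 and 227 refolded, 94 in unstressed cells and 161 in starved cells. The index was 1.27, 1.38, 1.12, 1.20, 0.55 (0.44 to 0.67) and 0.93 (0.79 to 1.08) in that order, and the interval of the unstressed library lay below those of the 5 others. GPX1 ran from 1.01 and 1.00 without DMS to 0.70 (0.60 to 0.82) in unstressed and 0.80 (0.67 to 0.95) in starved cells. In SELENOH the window had 43 and 19 stops without DMS, 64 and 90 refolded, 118 in unstressed cells and 69 in starved cells, and its index of 1.47 (1.22 to 1.76) in unstressed cells stood above the 0.85 (0.66 to 1.07) of starved cells.

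The window of TXNRD1 had 46 and 36 stops without DMS, 37 and 64 refolded, 18 in unstressed and 6 in starved cells. The index was 0.50 (0.30 to 0.79) in unstressed and 0.13 (0.05 to 0.29) in starved cells. Stops in the coding sequence of this mRNA were few in cells throughout, with an index of 0.11 and 0.16 over its whole coding sequence against 1.77 and 1.81 over its 3′ UTR. Across the mRNAs past the minimum, the 3′ UTR index over the coding index had a median of 1.56 in unstressed and 1.41 in starved cells, of 1.08 and 1.00 in refolded RNA and of 1.22 and 1.09 without DMS. No stop was listed around the codon of SEPHS2 in any library, with 10.5 to 20.5 expected at A and C. Its 15 A and C could each hold up to 2 stops that the files do not list.

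The stops at the A of the UGA codon itself differed between mRNAs. In GPX1 it had 11 and 8 stops without DMS, 14 and 19 refolded, 12 in unstressed and 15 in starved cells, which was 0.53 to 0.84 times the mean A of the transcript. In SELENOF it had 7 and 16 without DMS, 18 and 36 refolded, 6 and 14 in cells. The refolded RNA in Li+ reached 3.39 times the mean A there. SELENOH had 14 and 9 refolded, 9 and 7 in cells and none listed without DMS. SELENOK and SEPHS2 had no listed stop at this nucleotide in any library.

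Around the final stop codon, where translation ends, the index of SELENOH was 2.61 and 2.38 without DMS, 3.08 and 2.81 refolded, 5.16 (4.72 to 5.64) in unstressed and 3.41 (3.07 to 3.79) in starved cells. GPX4 had 1.19 and 0.82 without DMS, 1.30 and 1.27 refolded, 2.71 (2.43 to 3.03) in unstressed and 1.33 (1.11 to 1.58) in starved cells. For both mRNAs the unstressed library was the highest. In GPX1 and SELENOW, too, the final codon had a higher index in unstressed cells (1.52 and 1.48) than the recoded codon (0.70 and 0.55). The windows of the final codon reach 15 nt into the 3′ UTR, and the sparser coding stops in cells stand beside this difference.

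**Figure D3:**
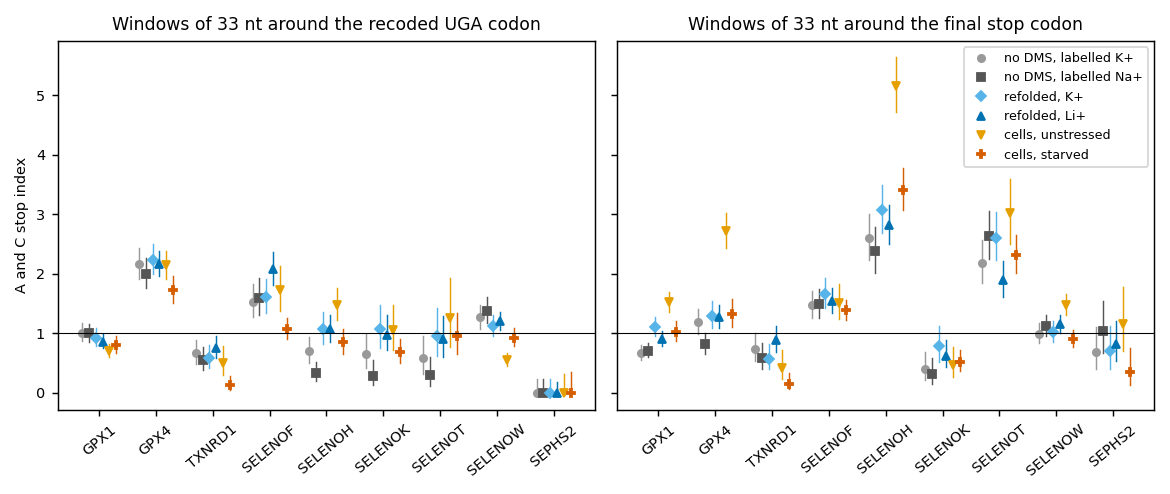
A and C stop index, observed over expected stops, in windows of 33 nt around the recoded UGA codon (left) and the final stop codon (right) of the 9 mRNAs in the 6 libraries. Bars are 95% counting intervals and the line at 1 is the mean of the transcript. GPX4 lies near 2 at the recoded codon, SEPHS2 lies at 0, and SELENOH reaches 5.16 at the final codon in unstressed cells.

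Single nucleotides with strong stops, an E of at least 10, were rare in these mRNAs without DMS and common with it. There were 2 with the K+ label and 7 with the Na+ label, 65 and 56 in refolded RNA in K+ and Li+, 191 in unstressed and 95 in starved cells. Of the 191, 168 were A, 22 were C and 180 lay in 3′ UTRs, and 29 lay in a SECIS element, 10 of them in SELENOH. SELENOT (60) and TXNRD1 (48) held the most, and in TXNRD1 all 48 were in its long 3′ UTR. Among the listed nucleotides of members past the minimum, 4.77% were strong in unstressed and 1.36% in starved cells, against 3.52% and 1.74% over all transcripts. In refolded RNA the figures were 1.18% and 0.844% (K+) and 0.879% and 0.872% (Li+). Without DMS they were 0.026% and 0.212% with the K+ label, and 0.0921% and 0.331% with the Na+ label. Since a nucleotide is listed only from 3 stops up, these shares depend on depth, and they were not compared at equal depth. SELENOT, with the most strong stops, had 1.03 stops per nucleotide in unstressed and 2.54 in starved cells.

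A pair of guanosines in SELENOH differed most between the libraries without DMS. The first, at nucleotide 443 of the transcript, had 11 stops with the K+ label and 189 with the Na+ label (E of 2.61 and 44.1), and 14, 11, 0 and 8 in refolded RNA (K+ and Li+), unstressed and starved cells. The second, at nucleotide 446, had 3 and 262 (E of 0.71 and 61.2), and 6, 8, 4 and 8. The second lies 30 nt before the recoded codon, in exon 1, within the coding sequence. The 30 nt that end at this guanosine are shown because they carry the stop, with runs of G in capitals.
SELENOH (chr11:57509138-57509167, plus strand): tGGcgaacGGcGGGGaGGGaatGGaGGaGG
RNA G-quadruplexes, stacks of G quartets that K+ stabilises more than Na+ or Li+, are known to halt RT at the 3′ end of such runs. By the labels the stops were in Na+, and by the file names they were in K+. Of the strong stops of all transcripts in the library labelled Na+, 49.8% were at least 2-fold above the library labelled K+, and 83.9% of these were at G. In the other direction the figures were 17.2% and 21.1%. Of the members' strong stops, 2 of 7 with the Na+ label exceeded the other library 2-fold, both at these guanosines, against 0 of 2 with the K+ label.

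SELENOW had a guanosine with strong stops in both libraries without DMS, 288 nt after the stop codon. It had 180 and 173 stops (E of 19.7 and 19.1), 48 and 58 in refolded RNA, 43 in unstressed and 110 in starved cells. It ends the sequence below, within a run of G, and in contrast with SELENOH its stops hardly differed between the libraries labelled K+ and Na+.
SELENOW (chr19:48287787-48287816, plus strand): tcttccccagttgtcccctGGagtttGGGG

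The level of each mRNA was read as its share of the stops of all matched transcripts, in SPM. Refolded RNA in K+ had 0.94 to 1.11 times the share of the library labelled K+. The in vivo libraries lay outside this range, except for 2 mRNAs in unstressed cells and 1 in starved cells. These were SELENOF and SELENOT unstressed (224 and 202 SPM, against 232 and 210 with the K+ label) and GPX4 starved (156 against 142). None of the members past the minimum differed 2-fold between refolded RNA in K+ and the library labelled K+ (0.0377% of transcripts above, 0% below). The same held between the libraries labelled K+ and Na+ (0% both ways). In the library labelled K+ GPX1 led with 247 SPM per kb, followed by SELENOW (203), GPX4 (142), SELENOF (126), TXNRD1 (113), SELENOH (93.6), SELENOT (60.5), SELENOK (54.9) and SEPHS2 (23.9). The median of the 9 was 113, against 47.9 over the 3744 transcripts past the minimum. In bulk RNA, fewer molecules and fewer stops per molecule cannot be told apart.

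**Figure D4:**
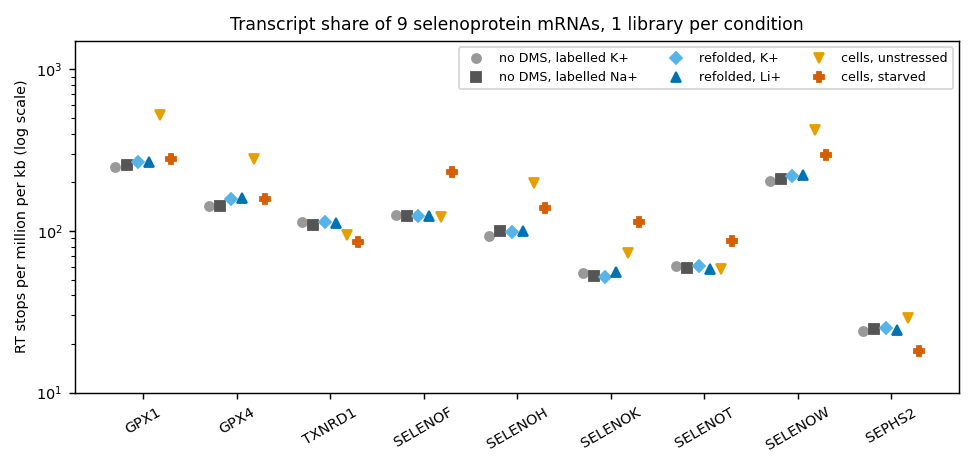
Transcript share in SPM, stops per 1000000 stops, per kb (log axis) of the 9 selenoprotein mRNAs, 1 point for each of the 6 libraries. The 4 libraries from RNA outside cells lie close together for each mRNA, while unstressed cells are higher for GPX1, GPX4, SELENOH and SELENOW and starved cells are higher for SELENOF, SELENOK and SELENOT.

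Between starved and unstressed cells 3 mRNAs had a higher share in starved cells and 6 a lower one. SELENOF had 224 (216 to 231) SPM in unstressed and 426 (418 to 434) in starved cells, 1.91-fold. SELENOK had 59.9 and 93.3 (1.56-fold) and SELENOT 202 and 300 (1.48-fold). GPX1 went from 468 (458 to 479) to 251 (245 to 257), a log2 difference of -0.90 with a counting interval of -0.95 to -0.86. GPX4 went from 279 to 156 (-0.83 on the log2 scale), SELENOW from 369 to 257 (-0.52), SELENOH from 240 to 169 (-0.51), TXNRD1 from 361 to 329 (-0.13) and SEPHS2 from 65.4 to 41.2 (-0.67). None of the 8 members past the minimum changed 2-fold in either direction (with listed stops only GPX1 did, at -1.05 on the log2 scale, and GPX4 fell just short of it), whereas over 1361 transcripts 14% were at least 2-fold above and 18.4% at least 2-fold below.

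This order went with base composition. Transcripts with under 40% G and C had a median log2 difference of 0.83, those with 40 to 45% 0.59, those with 50 to 55% -0.54, those with 55 to 60% -0.95 and those with 60% or more -1.23. SELENOF (35.3% G and C, 0.93) and SELENOT (34.9%, 0.57) were set against the first of these medians, and SELENOK (43.9%, 0.64) and TXNRD1 (43.8%, -0.13) against the second. SELENOH (53.9%, -0.51) lay at its median, SELENOW (56.2%, -0.52) above it, and GPX1 (62.4%, -0.90) and GPX4 (65.0%, -0.83) above theirs. TXNRD1 was the member farthest from transcripts of like composition, below the first quartile of 0.06. The part of base composition in these differences was not tested further.

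**Figure D5:**
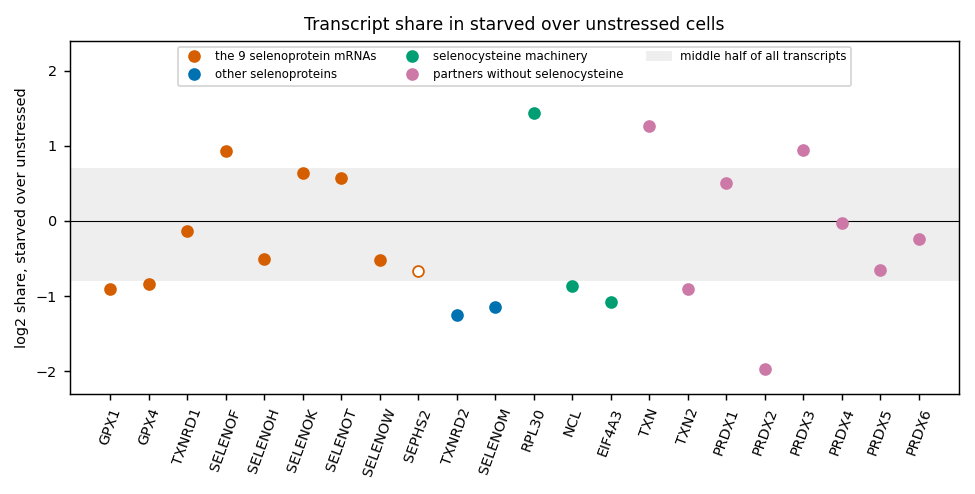
Log2 of the transcript share in starved over unstressed cells for the 9 selenoprotein mRNAs, other selenoproteins, the selenocysteine machinery and redox partners without selenocysteine past the minimum in both libraries (SEPHS2, below it, is open). The shaded band spans the first to the third quartile of 1361 transcripts, -0.79 to 0.70. SELENOF lies above it, GPX1 and GPX4 lie below it, and the other 5 members past the minimum lie inside.

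Against refolded RNA in K+, unstressed cells had higher shares of SELENOH (2.01-fold), GPX1 (1.95), SELENOW (1.94), GPX4 (1.77) and SELENOK (1.40), and lower ones of TXNRD1 (0.83). SELENOF and SELENOT were at 0.99 and 0.96. SELENOH alone passed 2-fold, as did 1.75% of 1660 transcripts, and no member was 2-fold below (0.361%). Starved cells against refolded RNA in K+ had SELENOK 2.18-fold higher, the 1 of 8 members past 2-fold (15.6% of 1897 transcripts), and 0 of 8 at least 2-fold lower (7.22%). Between the refolded libraries in K+ and Li+ the largest log2 difference of a member was -0.10 (SELENOK), and 0% of 2653 transcripts changed 2-fold in either direction.

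Other genes of selenium biology gave fewer values, to be read against the 14% of all transcripts at least 2-fold above and the 18.4% at least 2-fold below in starved cells. Of 16 further selenoproteins 9 were matched and 2 passed the minimum in both in vivo libraries, and both were at least 2-fold lower in starved cells, SELENOM (-1.14 on the log2 scale) and TXNRD2, the mitochondrial thioredoxin reductase (-1.26). Of 11 genes of the insertion machinery all were matched and 3 passed. These were the SECIS-binding ribosomal protein RPL30 (786 and 2128 SPM in unstressed and starved cells, 1.44 higher on the log2 scale), NCL (-0.86) and EIF4A3 (-1.08), of which RPL30 and EIF4A3 passed 2-fold. SECISBP2 and EEFSEC did not pass, at 0.19 and 0.10 stops per nucleotide in unstressed cells. Of 14 peroxide and disulfide partners without selenocysteine 13 were matched and 8 passed, of which TXN, the thioredoxin that TXNRD1 reduces, was 2-fold higher (1.26) and PRDX2, a peroxiredoxin, 2-fold lower (-1.97, both on the log2 scale). The median of these 8 was -0.14, against -0.32 for the 8 members and 0.00 over all transcripts.

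The pattern of shares over the 6 libraries was compared between the members' median and 1348 transcripts that passed the minimum in all of them. The 3 nearest transcripts were those of PSMB5, a proteasome subunit (Euclidean distance of centred log2 shares 0.033), the ribosomal protein RPL18 (0.040) and SNU13, a small nucleolar and spliceosomal protein (0.078). The members' own median went from -0.23 and -0.22 without DMS to 0.46 in unstressed and 0.24 in starved cells on this scale.

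The share of stops at A or C, the signal of DMS, split the selenoprotein mRNAs. Over the 8 past the minimum in all libraries its median was 49.6% and 49.5% without DMS, 74.7% and 75.2% in refolded RNA, 80.9% in unstressed and 71.4% in starved cells, against 50.8%, 50.3%, 77.0%, 76.9%, 83.4% and 73.6% over 1348 transcripts. In unstressed cells SELENOF (86.8%), SELENOT (86.3%) and SELENOK (85.4%) lay above the third quartile of these transcripts (85.0%), and 4 of the 8 lay below the first (81.4%), with SELENOW (77.1%) and GPX1 (77.3%) lowest. Starvation went with a lower share in all 9 mRNAs, from 77.3% to 63.9% in GPX1 and from 86.8% to 79.0% in SELENOF, as it was in 99.9% of all transcripts.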

How the data were processed

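RT stops of poly(A)-selected U2OS RNA were analysed in 6 libraries, 1 per condition, grouped by their sample labels. Bowtie and hg19 are named in the submitters' processing notes; after removal of duplicates and adapters, only unique perfect alignments to transcripts were kept. The authors deposited the stop count of each nucleotide with 3 stops or more. They also deposited its ratio to a mean count, taken in the files over nucleotides of one kind of base. The ratio gave these base means, from which transcript totals were rebuilt (with A totals at least the listed sum). Listed counts summed to 35371061 and 33507714 (libraries labelled K+ and Na+), 21480565 and 31174408 (refolded, K+ and Li+), 12999691 (unstressed) and 24014417 (starved).

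Transcripts with at least 15 listed bases (10872 of 15739) were compared with GENCODE release 44 (GRCh37) at those bases, and 10367 (95.4%) fitted a sequence, which gave coding spans and selenocysteine codons. SECIS elements were sought in 3′ UTRs as ATGA, an arm, AA and a closing GA, with ViennaRNA 2.7.2 and at least 6 arm pairs, and the lowest folding energy was taken. Counts have exact Poisson intervals, shares Wilson intervals and ratios of counts exact binomial ones. No test between conditions was possible with 1 library each. The calculation was tested on simulated data. The members and gene lists were chosen with earlier results of these data known. All 9 members, 3 fixed lists and the 3 nearest transcripts were named, and the apical over helix ratio and the guanosines of SELENOH and SELENOW were chosen after the values were seen. In total 26 alternatives were listed with the design and 12 added after seeing the data. Labels and file names contradict each other on the RT cation without DMS, and the labels were followed. The paper's methods name Li+ for RT where its results and the labels name Na+. Python 3.11.15, numpy 2.4.6, scipy 1.17.1 and matplotlib 3.10.9 were used.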

Additional observations from a re-analysis of the deposited data

How the results depend on the processing

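No paired analysis was possible because there was 1 library per condition, and for the same reason no replicate could be left out. Of 147 values recomputed under the alternatives, 100 moved by no more than the counting error (or 1.5 times for a count) and 47 moved. None of the log2 shares changed sign, and the other values, being counts, indices and percentages, could not. With listed stops only, 1 member was 2-fold lower in starved cells (GPX1, -1.05 on the log2 scale). The median share of A or C stops was taken here over all members, SEPHS2 included. With rebuilt totals it was 81.4% in unstressed and 72.5% in starved cells, against 80.9% and 71.4% without SEPHS2. With listed stops only it was 89.9% and 77.9%, and with all libraries thinned to the smallest it was 89.9% and 81.4%. The unstressed library is the smallest, and its thinned value equalled that with listed stops only. The thinned values therefore hold the change to listed stops as well as that of depth. Calling at 1.5-fold in place of 2-fold gave 2 members higher and 2 lower.

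The median SECIS index was 2.91, 3.72 and 2.45 in refolded RNA in K+, unstressed and starved cells relative to all nucleotides of the transcript, and 1.44, 1.81 and 1.13 relative to the rest of the 3′ UTR. It was 1.82 (refolded) and 2.24 (unstressed) with nucleotides not listed counted as 2, 1.50 and 1.80 without the strongest A or C, and 1.47 (refolded) with the element ended at the first GA. Second candidate elements, usable in 4 members past the minimum, gave 1.15 in unstressed and 2.05 in starved cells, which turned the order of these libraries. Around the recoded codon the median was 1.66, 2.03 and 1.28 relative to all nucleotides. Without the strongest A or C it crossed 1, from 1.07 to 0.94 in refolded RNA in K+ and from 1.15 to 0.90 in unstressed cells. With nucleotides not listed counted as 2 it rose to 1.24 and 1.51.

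Members with a 2-fold apical over helix ratio in the library labelled K+ numbered 1 with unlisted nucleotides counted as 1, 0 counted as 2, 1 without the strongest apical nucleotide and 1 with A only. The counts with DMS stayed within 1.5 times under the 8 alternatives run, with 6 to 7 in refolded RNA in K+, 5 to 7 in Li+, 5 to 7 in unstressed and 2 to 4 in starved cells. At an E of at least 5 there were 234 strong stops with the K+ label and 183 with the Na+ label, at 20 there were 0 and 2, and by the deposited ratio 5 with the K+ label. Strong stops 2-fold stronger with the K+ label numbered 59 at an E of at least 5, and 2 under the opposite assignment. The cause of these shifts was not tested.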
